A study of Mus musculus with 29 samples.

Results

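Meiotic recombination was followed through 10 genes in mouse ovaries with and without Cdkn1b, which encodes p27Kip1, an inhibitor of cyclin-dependent kinases. The genes were Prdm9, Spo11, Mei1, Hormad1, Hormad2, Dmc1, Spata22, Msh4, Msh5 and Mlh3. They were listed by name with earlier results of these data known. Counts of these genes set beside the share of all genes therefore describe this list only. All 10 were found among the 51912 gene IDs of the deposited count table. Bulk RNA sequencing had been done on papain-dissociated ovaries of Cdkn1b+/+ (wild-type) and Cdkn1b-/- (Cdkn1b-null) mice. The fetal ages were embryonic days 13.5 and 18.5, written E13.5 and E18.5, and the later ages were postnatal day 8, written PND8, and 12wk (12 weeks). Wild type had 4 libraries at each age, and there were 4 Cdkn1b-null libraries at E18.5 and 3 at each of the other ages, numbered 1, 3 and 4. The labels give no strain, and they do not say whether ovaries were pooled or whether replicates came from separate animals, so p-values measure the spread between these libraries, which may be technical in part.

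In females, germ cells enter meiosis in the fetal ovary, recombine their chromosomes there and arrest in a late stage of the first meiotic prophase around birth. Recombination starts with programmed DNA breaks. PRDM9, a histone methyltransferase with a zinc-finger DNA-binding domain, marks the sites, SPO11 is the topoisomerase-like enzyme that cuts, and MEI1 is needed for the cutting. HORMAD1 and HORMAD2 sit on the chromosome axis, where they promote the surveillance of unpaired chromosomes, and HORMAD1 also promotes break formation. The broken ends are made single-stranded and searched against the homologous chromosome by DMC1, a recombinase used in meiosis, and SPATA22 works with MEIOB on the single-stranded DNA. MSH4 and MSH5 form a pair that stabilises the intermediates, and MLH3 helps turn them into crossovers. MLH3 also takes part in mismatch repair outside meiosis.

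Levels are given as CPM, the usual unit of a count scaled to its library's total, and 3 counts, equal to 0.0622 to 0.213 CPM depending on the library, were taken as the lowest level a library can show. This floor covers counting error only, because without molecular identifiers several reads can come from a single molecule. Library totals ran from 14.1 M to 48.2 M counts, with the fetal libraries at 14.1 M to 24.86 M and the postnatal libraries at 24.07 M to 48.21 M. Cdkn1b itself was lower in every Cdkn1b-null library than in every wild-type library of the same age. Its mean was 12.1% of that in wild type at E18.5 and 19.7% at E13.5, and higher after birth, with 48.3% at PND8 and 27.7% in the adult, and the labels do not say which part of the gene is deleted. The summed level of 8 germ cell markers (Ddx4, Dazl and others) ran from 412 to 980 CPM at E13.5, 149 to 593 at E18.5, 33.5 to 134 at PND8 and 4.22 to 14.1 at 12wk, so RNA of germ cells was present at each age. In bulk samples, fewer germ cells and less RNA per germ cell cannot be told apart. The Cdkn1b-null library 3 at E13.5 stood apart from the other 6 libraries of that age in these genes, and the wild-type library 3 at E13.5 had 18.97% of its counts on haemoglobin genes. Results that rest on either are given with and without it.

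Promoter sequence was examined for short words that meiotic and cell cycle factors are known to read, because several of the genes moved together in these libraries. The sequences are those of RefSeq on GRCm38.p6 and cover the 250 bases before an annotated start. They were found for 9 of the 10 genes, all but Spo11. The word CNCCTCAG, preferred by the meiotic initiator STRA8, occurred on either strand in 3 of the 9 genes (Prdm9, Msh5 and Hormad2), against 7.39% of 27025 genes. The word TCCCGC, the core of the sites bound by E2F cell cycle factors, occurred in 5 of the 9 (Dmc1, Hormad1, Msh5, Prdm9 and Spata22), against 18.8% of genes. The cyclic AMP response word TGACGTCA occurred in 0 of the 9, against 1.77% of genes. A match is a description of the letters and not evidence of binding.

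The stretches that hold the matches are printed 5′ to 3′ on the gene's own strand to show the matches nearest a start, with the matched words in capitals (CTGAGG and GCGGGA begin the reversed forms). A further match to the E2F word 240 bases before the Dmc1 start and another 230 bases before a second Prdm9 start lie outside them. The Prdm9 stretch is chr17:15564355-15564474 on the minus strand and holds both words overlapping by their shared C, 41 and 46 bases before the start. The Hormad2 stretch is chr11:4441106-4441202, minus strand, and the Msh5 stretch is chr17:35046679-35046708, minus strand. In the GENCODE annotation Msh5 begins 123 bases before the RefSeq start, so its stretch lies inside the annotated gene. The Dmc1 stretch is chr15:79605110-79605229, minus strand, the Hormad1 stretch is chr3:95559557-95559676, plus strand, and the Spata22 stretch is chr11:73329621-73329740, plus strand.
Prdm9: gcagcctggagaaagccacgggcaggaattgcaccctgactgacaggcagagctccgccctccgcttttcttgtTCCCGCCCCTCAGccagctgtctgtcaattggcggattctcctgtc
Hormad2: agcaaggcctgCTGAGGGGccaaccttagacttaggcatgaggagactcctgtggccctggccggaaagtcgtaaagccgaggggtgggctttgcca
Msh5: gcggCTGAGGTGacggaaaagGCGGGAaag
Dmc1: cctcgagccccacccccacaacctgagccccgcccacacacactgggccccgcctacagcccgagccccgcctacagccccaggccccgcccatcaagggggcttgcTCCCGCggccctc
Hormad1: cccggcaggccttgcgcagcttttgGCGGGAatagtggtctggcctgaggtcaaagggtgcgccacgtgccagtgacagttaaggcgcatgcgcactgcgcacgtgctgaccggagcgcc
Spata22: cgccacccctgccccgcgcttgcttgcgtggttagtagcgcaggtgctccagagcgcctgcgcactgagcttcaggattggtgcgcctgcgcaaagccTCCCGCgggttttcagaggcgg

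The first comparison asked how the 10 genes change with age in wild-type ovaries. From E13.5 to E18.5, 7 of the 10 rose (edgeR quasi-likelihood test, Benjamini-Hochberg adjusted p under 0.05 over 16603 genes), where 16.6% of all genes tested rose. The 7 were Spata22, Spo11, Mei1, Prdm9, Msh4, Hormad1 and Mlh3, and the same number was called when each library was left out in turn. From E18.5 to PND8, 9 of the 10 fell, all but Mlh3, where 36.9% of all genes tested fell. From PND8 to 12wk only Dmc1 passed the test among the 5 genes with enough counts, and it fell, as did 14.3% of all genes. The median log2 fold change of the genes tested was 1.98, -4.15 and -0.71 over these 3 steps, against 0.01, 0.01 and -0.01 over all genes. The plot of levels by age shows the 10 profiles.

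**Figure D1:**
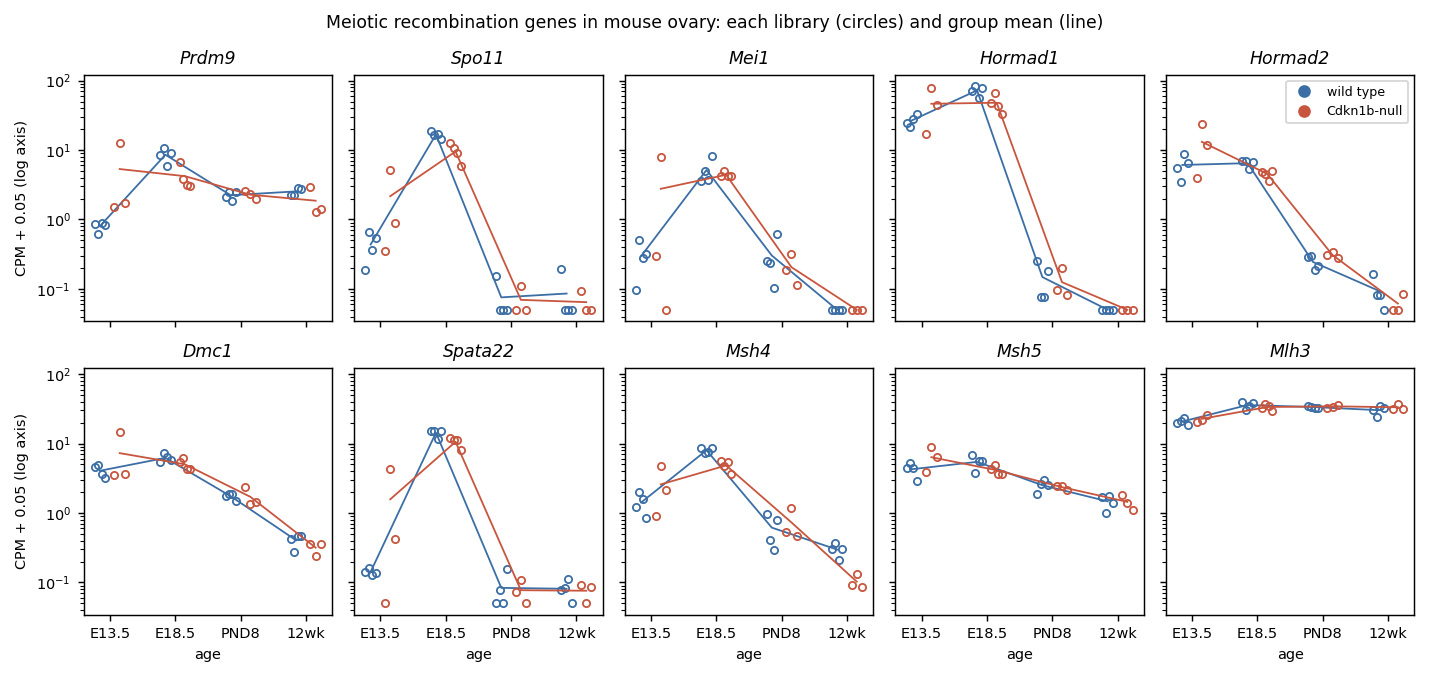
Level of each of the 10 genes (CPM + 0.05, log axis) against age, with 1 circle per library and a line through the group means, wild type in blue and Cdkn1b-null in red. Spo11, Spata22, Mei1, Msh4 and Prdm9 were higher at E18.5 than at E13.5 in wild type, Mlh3 stayed between 18.7 and 39.3 CPM in all libraries, and circles at 0.05 are libraries with 0 counts.

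Of the genes that act in break formation, Spo11, Mei1 and Prdm9 were below 1 CPM in every wild-type library at E13.5 and above 3 CPM in every one at E18.5. Of 10 other break formation genes 3 rose and 2 fell between these ages, with a median log2 change of -0.03. Spo11 was at 0.137, 0.616, 0.308 and 0.485 CPM in the 4 wild-type libraries at E13.5 (29 counts in all) and at 18.7, 16.5, 17.2 and 14.5 CPM at E18.5. The ages do not overlap, and the level rose by 5.40 on the log2 scale (SE 0.378, adjusted p = 1.43e-05, edgeR). At PND8, 3 of the 4 libraries had 0 counts of Spo11 and the other had 3, and at 12wk 3 had 0 and the other had 5. Spo11 in wild type thus exceeded 1 CPM at E18.5 and in no library of the other ages.

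Mei1 had 1, 8, 3 and 6 counts at E13.5 in the wild-type libraries, and 3.51, 5.01, 3.71 and 8.23 CPM at E18.5, a rise of 4.35 (log2, SE 0.566, adjusted p = 0.000334, edgeR). It was back at 0.0539 to 0.562 CPM at PND8, and all 4 libraries had 0 counts at 12wk, which allows at most the floor of 3 counts in each. Its E18.5 libraries spread more widely than those of Spo11, with library 4 well above the other 3.

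Prdm9 followed another course after birth. It went from 0.819, 0.56, 0.847 and 0.794 CPM at E13.5 to 8.57, 10.7, 5.79 and 8.94 at E18.5, a rise of 3.47 (log2, SE 0.306, adjusted p = 4.1e-05, edgeR). It then fell to 2.07, 2.41, 1.81 and 2.44 CPM at PND8 (log2 change -2.04, adjusted p = 2.89e-05). At 12wk it stood at 2.21, 2.21, 2.82 and 2.71 CPM, which overlaps PND8 (log2 change 0.26, adjusted p = 0.396), while the germ cell marker Ddx4 was at 0.258 to 0.791 CPM. Adult ovaries thus held more Prdm9 than the E13.5 ovaries did, in every wild-type library of both ages, with at least 69 counts in each adult library. Which cells of the adult ovary carried these reads was not tested.

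The axis genes were already well above the floor at E13.5. Hormad1 was at 24.1, 21.2, 28.2 and 33.0 CPM at E13.5 and at 70.0, 84.3, 56.4 and 78.6 CPM at E18.5, a rise of 1.43 (log2, SE 0.176, adjusted p = 0.000256, edgeR). It then fell to 13 counts over the 4 PND8 libraries, a mean 738-fold lower, and to 0 counts in all 4 adult libraries. Hormad2 showed no such rise: it was at 5.55, 3.42, 8.78 and 6.44 CPM at E13.5 and 6.91, 6.91, 5.26 and 6.6 at E18.5 (log2 change 0.08, SE 0.295, adjusted p = 0.868), and its 2 ages overlap. Hormad2 fell 33.1-fold by PND8 (log2 change -5.11, adjusted p = 2.65e-07) and had 6 counts over the adult libraries. The sign of the Hormad2 change between the fetal ages turned to -0.12 without wild-type library 2 of E13.5.

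The strand invasion genes differed from each other at E13.5. Dmc1 was at 4.51, 4.87, 3.54 and 3.13 CPM at E13.5 and at 5.37, 7.32, 6.27 and 5.72 at E18.5, and although the libraries do not overlap the change of 0.61 did not pass the test (log2, SE 0.248, adjusted p = 0.0827, edgeR). Dmc1 then fell in steps, to 1.7, 1.81, 1.81 and 1.45 CPM at PND8 and to 0.373, 0.224, 0.412 and 0.409 at 12wk (log2 changes -1.95 and -2.16, adjusted p = 1.67e-05 and 0.00095). Spata22 had 2, 2, 1 and 2 counts at E13.5, at or under the floor in each library, and 15.2, 15.1, 11.7 and 15.2 CPM at E18.5. Its rise of 7.17 (log2, SE 0.298, adjusted p = 7.58e-07, edgeR) ranked 4 by p among all 16603 genes tested, and the ratio of the means was 155, with a 95% counting interval of 75.1 to 387 because the earlier group held 7 counts (exact binomial, counting error only). By PND8 Spata22 was back at 5 counts over the 4 libraries. Its exons share 1025 bases with the predicted gene Gm49340 on the same strand, which stayed at or below 0.358 CPM in every library.

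Of the crossover genes, Msh4 behaved most like the break genes. It went from 1.18, 1.96, 1.54 and 0.794 CPM at E13.5 to 8.46, 7.32, 7.47 and 8.61 at E18.5 (log2 change 2.53, SE 0.315, adjusted p = 0.000264, edgeR) and down to 0.242 to 0.917 CPM at PND8 (log2 change -3.90, adjusted p = 8.6e-06). Its partner Msh5 was at 4.46, 5.21, 4.39 and 2.82 CPM at E13.5 and 6.76, 3.74, 5.59 and 5.52 at E18.5, overlapping ranges (log2 change 0.35, SE 0.287, adjusted p = 0.384). Msh5 fell to 1.8 to 2.96 CPM at PND8 (log2 change -1.21, adjusted p = 0.00138) and stood at 0.962 to 1.71 CPM at 12wk (log2 change -0.71, adjusted p = 0.0755). Of the partners only Msh4 thus passed the test for the fetal step, while both fell by PND8. Over all 29 libraries they correlated at r = 0.816 (Pearson), and whether their fetal steps differed was not tested. Mlh3 was steady by comparison: 20.0, 21.0, 23.2 and 18.7 CPM at E13.5, 39.3, 30.5, 35.0 and 38.6 at E18.5 (log2 change 0.78, SE 0.143, adjusted p = 0.00227), 32.8 to 35.1 at PND8 and 23.8 to 34.2 at 12wk. It alone of the 10 did not pass the test for the E18.5 to PND8 step (log2 change -0.18, adjusted p = 0.147).

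Per kilobase of exon, which allows levels of different genes to be compared, Hormad1 led at both fetal ages, with 15.4 ± 2.98 CPM per kb at E13.5 (SD, n = 4) and 41.8 ± 7.02 at E18.5. At E18.5 Spata22 followed with 11.2, then Mlh3 with 4.75 and Spo11 with 4.26, whose ranges overlap. Dmc1 (2.53), Hormad2 (2.35) and Prdm9 (1.97) overlapped in that order, and Msh4 (1.16), Mei1 (1.08) and Msh5 (0.977) came last with overlapping ranges. Spata22 was ninth of the 10 at E13.5 with 0.0723 CPM per kb, overlapping Mei1 (0.0522) below it and Spo11 (0.0986) above it. At PND8 Mlh3 led with 4.44, followed by Dmc1 with 0.694 and Prdm9 with 0.506. At 12wk the order was Mlh3 with 4.0, Prdm9 with 0.577, Msh5 with 0.257 and Dmc1 with 0.146, each apart from the next.

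The E18.5 to PND8 step coincides with the change from fetal to postnatal libraries. The header of the deposited table names 2 combined projects without saying which libraries belong to which. The age step and any difference between projects cannot be told apart there. Growing oocyte markers (Zp1, Zp2, Zp3, Gdf9, Bmp15 and others, 10 in all) summed to 37.6 to 146 CPM at E18.5 and 182 to 692 at PND8 in wild type, while Hormad1, Spo11 and Spata22 were near the floor. Over the same step 5 of the 8 germ cell markers fell and 1 rose, with a median log2 change of -2.06. The mean of Ddx4 went from 46.1 to 5.71 CPM and that of Dazl from 129 to 2.8 CPM. The part of germ cell number in the fall of the 10 genes was not tested.

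The second comparison asked how loss of Cdkn1b changes these genes at each age. At E18.5 all 10 genes had lower means in the Cdkn1b-null ovaries, with log2 differences from -0.11 (Mlh3) to -1.04 (Prdm9) and a median of -0.49, against -0.04 over all genes, of which 55.3% were lower. None of the 10 passed the adjusted threshold in edgeR, where 4.99% of all genes did. At an unadjusted p under 0.05 there were 6 of 10, against 22.2% of all genes. DESeq2 called 4 of them lower (Spo11, Msh4, Prdm9 and Hormad1), as it did 4.18% of all genes. edgeR itself called 2 lower without the filter on low counts (0.929% of all genes), 3 with a replicate block (2.25%) and up to 2 with a library left out. The count of calls at E18.5 thus moved with the tool and with these settings, whereas the sign was negative for 9 of the 10 genes in every alternative and with each library left out; Mei1 turned to 0.08 without wild-type library 4.

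**Figure D2:**
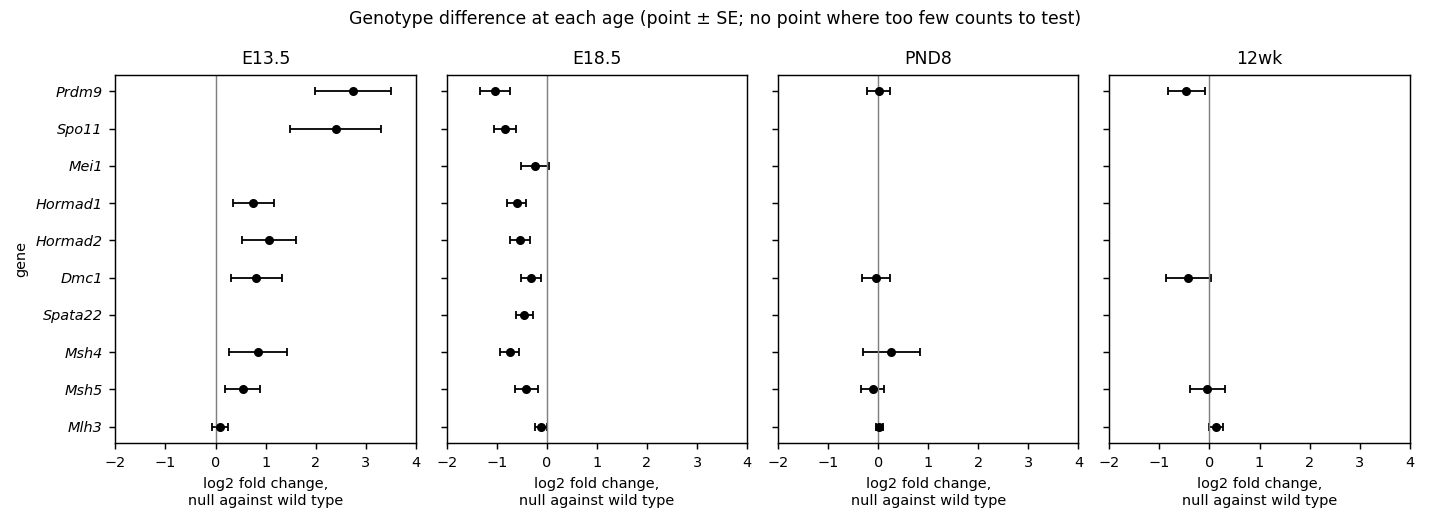
Log2 fold change of each gene in Cdkn1b-null against wild type (x axis) at the 4 ages, as the edgeR estimate with its standard error, with no point where a gene had too few counts to be tested. All 10 points lie below 0 at E18.5 and all 8 lie above 0 at E13.5, and no point passed an adjusted p of 0.05.

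Spo11 at E18.5 was at 12.5, 10.7, 8.94 and 5.8 CPM in the Cdkn1b-null libraries, all below the wild-type range of 14.5 to 18.7. The mean was 56.8% of wild type (log2 difference -0.83, SE 0.218, adjusted p = 0.0536, edgeR). Msh4 showed the same separation, with 5.52, 4.71, 5.3 and 3.63 CPM against 7.32 to 8.61, or 60.1% of wild type (log2 difference -0.74, SE 0.193, adjusted p = 0.0505). Hormad2 was at 4.84, 4.5, 3.59 and 5.0 CPM against 5.26 to 6.91, or 69.8% (log2 difference -0.53, SE 0.199, adjusted p = 0.151). These 3 were the genes in which every Cdkn1b-null library lay below every wild-type library, as was so for 5.56% of all genes.

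Prdm9 had the largest difference at E18.5 and more scatter. Its Cdkn1b-null libraries were at 6.76, 3.76, 3.07 and 3.02 CPM, and library 1 reached into the wild-type range of 5.79 to 10.7 (48.9% of the wild-type mean, log2 difference -1.04, SE 0.294, adjusted p = 0.0684, edgeR). Hormad1 was at 48.2, 67.0, 43.2 and 33.4 CPM, with library 2 inside the wild-type range of 56.4 to 84.3 (66.3%, log2 difference -0.60, adjusted p = 0.0986). Spata22 was at 11.9, 11.1, 11.2 and 8.06 CPM, with library 1 just above the lowest wild-type library of 11.7 (73.8%, log2 difference -0.45, adjusted p = 0.153). Dmc1, Msh5, Mei1 and Mlh3 stood at 80.6%, 75.6%, 85.1% and 93.5% of wild type, each with overlapping libraries and adjusted p from 0.321 to 0.643.

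Germ cell RNA moved in the same direction at E18.5. All 7 of the germ cell markers with enough counts were lower in the Cdkn1b-null ovaries, with none passing the test and a median log2 difference of -0.53, close to that of the 10 genes. None of the 8 markers was at 0, and their summed level was 201 to 593 CPM in wild type and 149 to 356 in Cdkn1b-null. Ddx4 was at 44.3, 54.1, 32.9 and 53.2 CPM in wild type and at 24.2, 38.9, 33.5 and 24.0 in Cdkn1b-null, 65.4% of the wild-type mean, and Dazl was at 69.8%. Divided by Ddx4 library by library, 0 of the 10 genes kept the genotypes apart, and the median log2 ratio of the means was 0.16, with 3 genes lower. Divided by Dazl, 0 of the 10 kept them apart, with a median of -0.08 and 7 genes lower. The share of all genes kept apart after such a division was not computed. Ddx4 and Dazl themselves varied 1.64-fold and 2.62-fold between the wild-type libraries, and this spread enters the ratios. Markers of other cells moved in differing directions. Of 6 stroma and theca markers 5 were lower, 2 passed the test and the median was -0.52, with summed levels of 1140 to 2520 CPM in wild type and 1140 to 1740 in Cdkn1b-null. Of 6 blood markers with enough counts 5 were lower and none passed, with a median of -0.70 and sums of 1590 to 32600 CPM against 1610 to 24000. None of the markers of either list was at 0. All 4 endothelium markers were higher, with a median of 0.14 and none called. Of 8 granulosa lineage markers with enough counts 4 were higher and 4 lower, with a median of -0.04 and 1 called higher. The testis somatic list and the list of mesonephros and surface epithelium each had a median of -0.18 and none called. The part of germ cell number and of these other cells in the E18.5 difference was not tested.

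**Figure D3:**
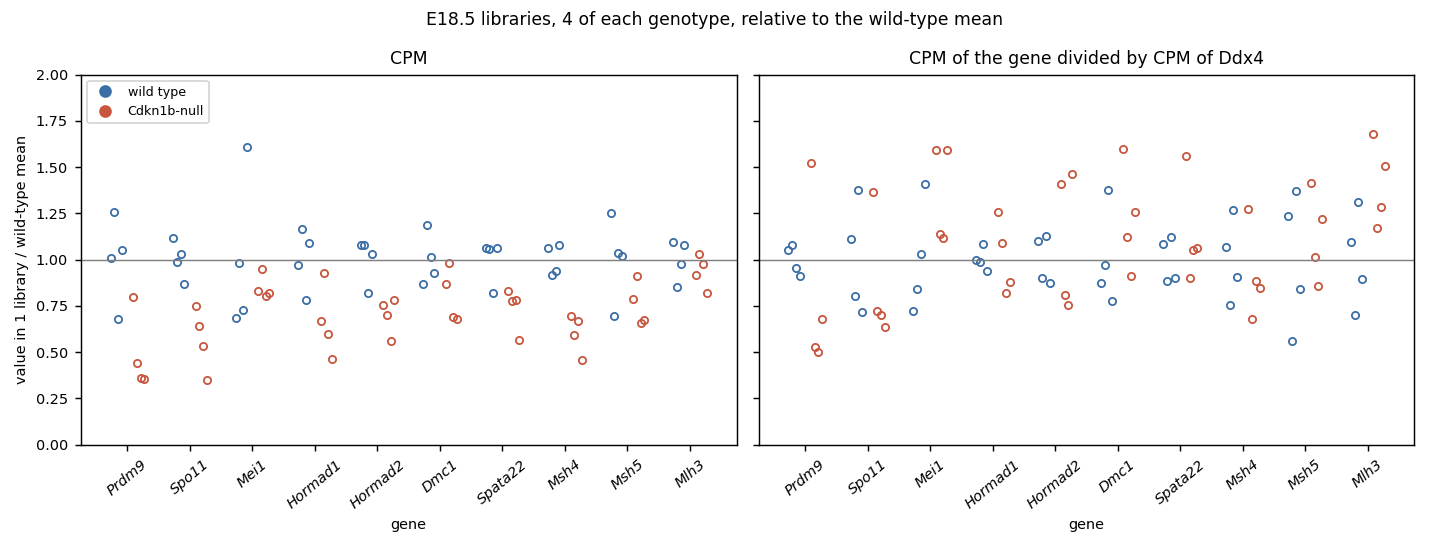
The 8 libraries of E18.5, with each gene's CPM (left) and its CPM divided by that of Ddx4 (right), both relative to the wild-type mean (y axis, grey line at 1). In the left panel most Cdkn1b-null libraries (red) lie below 1 and those of Spo11, Msh4 and Hormad2 lie below all wild-type libraries (blue); in the right panel the genotypes overlap for all 10 genes.

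After birth no difference was seen in the genes that could be tested. At PND8 edgeR called 0 of the 5 genes with enough counts (Dmc1, Msh4, Msh5, Mlh3 and Prdm9), where it called 0.349% of all genes. None had an unadjusted p under 0.05, as 15.0% of all genes did, and DESeq2 also called 0, where it called 4.63% of all genes. Their log2 differences ran from -0.11 to 0.26. At 12wk it called 0 of 4 (Dmc1, Msh5, Mlh3 and Prdm9), where it called 0.0115% of all genes, again with none at an unadjusted p under 0.05 (9.62% of all genes) and 0 by DESeq2 (1.88% of all genes). Prdm9 was at 2.86, 1.23 and 1.35 CPM in the 12wk Cdkn1b-null libraries against 2.21 to 2.82 in wild type (log2 difference -0.46, SE 0.366, adjusted p = 0.738). Msh4 had 1, 3 and 1 counts in the 12wk Cdkn1b-null libraries and 9, 10, 5 and 8 in wild type, so all 3 were below all 4 (4.06% of the genes tested), at a level too low for the test. Growing oocyte markers at that age summed to 8.75 to 113 CPM in wild type and 4.98 to 8.45 in Cdkn1b-null, where Figla was at 0, and their part in the Msh4 counts was not tested.

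At E13.5 the Cdkn1b-null means were higher for all 8 genes tested, with a median log2 difference of 0.83 against -0.01 over all genes, of which 51.4% were lower. edgeR called 0 of 8, where it called 0.00606% of all genes, and DESeq2 called 0, where it called 0.397%. Prdm9 and Spo11 had an unadjusted p under 0.05 (2 of 8, against 3.49% of all genes). Mei1 and Spata22 had too few counts to be tested. These means rest on Cdkn1b-null library 3, as the values by replicate show.

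**Figure D4:**
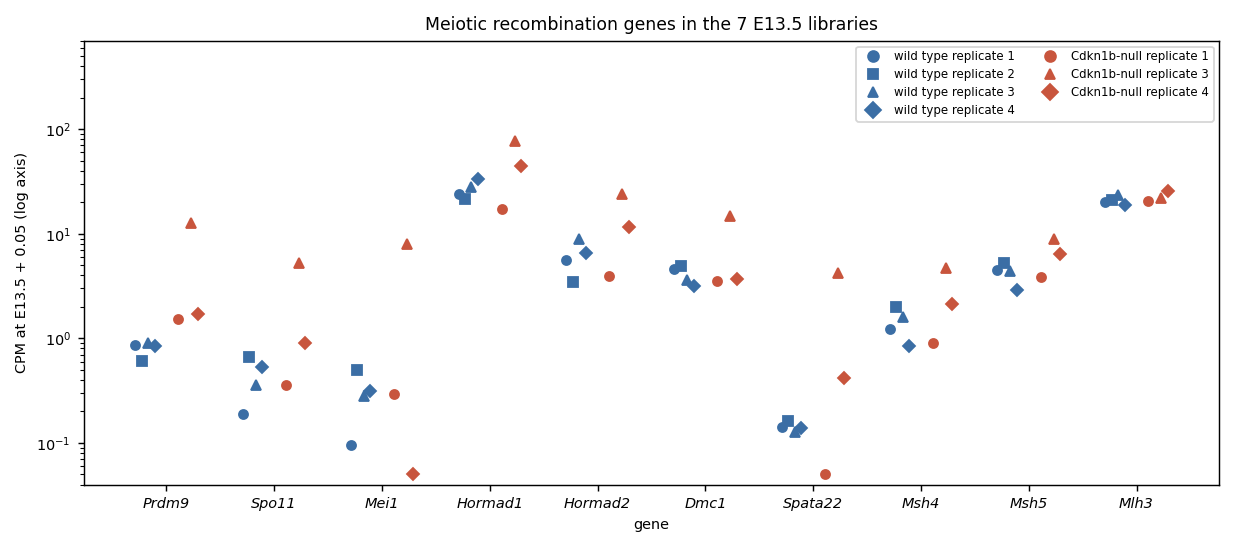
CPM + 0.05 (log axis) of each gene in the 7 libraries of E13.5, with wild type in blue, Cdkn1b-null in red and the replicate number by symbol. Cdkn1b-null replicate 3 (red triangle) is the highest library for 9 of the 10 genes, and for Mei1 and Spata22 it is at 7.9 and 4.2 CPM while the other 6 are at or below 0.448 CPM.

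Prdm9 at E13.5 was at 1.47, 12.7 and 1.65 CPM in Cdkn1b-null libraries 1, 3 and 4, against 0.56 to 0.847 in wild type. It was the only gene of the 8 tested in which every Cdkn1b-null library lay above every wild-type library, which was so for 1.76% of all genes, and that separation does not need library 3. Its log2 difference was 2.74 (SE 0.756, adjusted p = 0.989, edgeR) and 1.02 without library 3 (adjusted p = 1). When all 29 libraries were fitted together Prdm9 passed the test (2.80, adjusted p = 0.0176), as 0.29% of all genes did. Spo11 was at 0.307, 5.18 and 0.851 CPM, so library 1 lay inside the wild-type range of 0.137 to 0.616. Its log2 difference of 2.40 (SE 0.911, adjusted p = 0.989) became 0.56 without library 3.

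The 4 genes with the lowest wild-type means had the 4 highest ratios in library 3. That mean is also the divisor of each ratio, which by itself favours such an order. Relative to the wild-type mean library 3 held 45.7 times as much Spata22 (95% counting interval 21.4 to 116, from 7 wild-type counts), 32.0 times as much Mei1 (19.7 to 55.0, from 18 counts), 16.8 times as much Prdm9 and 13.4 times as much Spo11, so the order of the first 2 is within counting error. Genes with higher wild-type means had lower ratios: Hormad2 3.93 times, Dmc1 3.64, Msh4 3.41, Hormad1 2.90 and Msh5 2.08. Mlh3 was at 22.0 CPM, 1.06 times the wild-type mean. So 9 of the 10 genes were at their highest of the 7 libraries and at least 2-fold above the wild-type mean there. Of the 8 genes with enough counts to be tested this was so for 7, as for 3.07% of all genes tested.

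The library 3 counts behind these ratios are not marginal, but the wild-type counts they are divided by were few for 3 genes. These were 7 for Spata22, 18 for Mei1 and 29 for Spo11, summed over the wild-type libraries of E13.5. Library 3 had 203 counts of Mei1, against 4 and 0 in the other Cdkn1b-null libraries, and 108 of Spata22, against 0 and 7. Set against the 4 wild-type libraries of E18.5, it was below all of them in 4 genes, above all in 4 and inside their range in 2. It was below for Mlh3 (22.0 against 30.5 to 39.3 CPM), Spo11 (5.18 against 14.5 to 18.7), Spata22 (4.2 against 11.7 to 15.2) and Msh4 (4.67 against 7.32 to 8.61). It was above for Hormad2, Dmc1, Prdm9 and Msh5, at 23.7, 14.6, 12.7 and 8.8 CPM, and inside for Hormad1 (77.2 CPM) and Mei1 (7.9 CPM).

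Genes of meiotic entry stood out in the same library. Stra8, the retinoic acid target that switches germ cells to meiosis, was at 75.3 CPM in library 3 and at 2.58 to 10.9 in the other 6, or 10.3 times the wild-type mean, and its partner Meiosin was at 25.8 CPM, or 6.99 times. Sycp3, a synaptonemal complex protein, was at 95.6 CPM, 7.73 times the wild-type mean. The general germ cell markers Ddx4 and Dazl were raised less, at 223 CPM (1.98 times) and 367 CPM (1.77 times). Pou5f1, a pluripotency factor of early germ cells, was at 58.0 CPM (0.92 times). All 8 germ cell markers together summed to 980 CPM in library 3, against 412 and 960 in the other Cdkn1b-null libraries and 533 to 798 in wild type. The 7 meiotic entry markers summed to 753 CPM in library 3, against 217 or less in the other Cdkn1b-null libraries and 196 to 227 in wild type. Library 3 was also the highest of the 7 in markers of mesonephros and surface epithelium, which summed to 849 CPM against 300 to 575 in the other 6, and of the granulosa lineage, at 688 CPM against 331 to 582. The part of these cells was not tested. Germ cell number and the stage of the ovary cannot be told apart from the library here.

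Of the other Cdkn1b-null libraries at E13.5, library 4 held 4.04 times the wild-type mean of Spata22 (7 counts, counting interval 1.21 to 13.5), 2.20 times that of Spo11, 1.92 times that of Hormad2 and 1.67 times that of Hormad1. Library 1 lay below the wild-type mean for Hormad1 (0.644 times), Hormad2 (0.649), Msh4 (0.627) and Spo11 (0.793), and for Dmc1, Msh5, Mlh3 and Mei1 it was between 0.871 and 0.994 times. The 3 Cdkn1b-null libraries therefore did not share a direction except for Prdm9. Without library 3 the log2 differences of the 8 genes ran from -0.20 (Dmc1) to 1.02 (Prdm9), with adjusted p = 1 for all 8. Without wild-type library 3, the one rich in haemoglobin, edgeR still called 0.

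The third comparison followed the Cdkn1b-null ovaries through the same ages. From E13.5 to E18.5 edgeR called 2 of 10 genes, where 30.2% of all genes were called: Mlh3 rose (log2 change 0.59, SE 0.129, adjusted p = 0.00899) and Hormad2 fell (log2 change -1.52, SE 0.485, adjusted p = 0.0456). The Mlh3 rise held with each library left out. The Hormad2 call held in 1 of those 7 fits: it was lost without Cdkn1b-null library 3 or 4 of E13.5 and without any 1 of the 4 of E18.5 (adjusted p 0.0799 to 0.168), and without the filter on low counts (adjusted p = 0.121). Without library 3 of E13.5, 6 genes rose, where 14.6% of all genes did, namely Spata22 (5.71), Mei1 (5.16), Spo11 (4.01), Msh4 (1.70), Prdm9 (1.42) and Mlh3 (0.55), and Hormad2 stood at -0.79. With the replicate number as a block, only Mlh3 was called (23.4% of all genes were), and Hormad2 stood at -1.21 (adjusted p = 0.194). From E18.5 to PND8, 9 of 10 fell (38.5% of all genes fell), with Mlh3 at a log2 change of -0.03 (adjusted p = 0.789). From PND8 to 12wk 2 of 5 fell (14.3% of all genes fell), Dmc1 by 2.55 and Msh4 by 3.47 on the log2 scale (adjusted p = 0.00717 and 0.0107).

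Whether the genotype difference itself changed between E13.5 and E18.5 was tested with an interaction term. All 10 estimates were negative, with a median of -1.61 against 0 over all genes, and edgeR called 0 of 10, where 0.421% of all genes were called. At an unadjusted p under 0.05 there were 8 of 10, against 9.83% of all genes, and DESeq2 called 2 of the 8 to which it gave a p, Prdm9 and Spo11, both lower, as were 0.306% of all genes. The smallest adjusted p were those of Prdm9 (-3.80, SE 0.812, adjusted p = 0.06), Spo11 (-3.26, SE 0.865, adjusted p = 0.148) and Spata22 (-4.43, SE 1.18, adjusted p = 0.153). Without library 3 of Cdkn1b-null E13.5 they shrank to -2.06, -1.40 and -1.45 with adjusted p of 0.116 or more, and Mei1 turned positive (0.79). Without library 1 of that group, by contrast, edgeR called 4 of the 10, all lower, as were 0.0903% of all genes.

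A list of 64 other genes of the pathway, also chosen with earlier results of these data known, gave the setting. At E18.5, 18 of the 64 passed the test between genotypes, 12 higher and 6 lower in Cdkn1b-null, where 3.32% of all genes were called higher and 1.67% lower. The directions differed by list. Of 19 genes of end processing and strand invasion 7 rose and 0 fell, among them Exo1, an exonuclease that resects DNA ends (log2 difference 1.32, SE 0.134, adjusted p = 0.000955, edgeR), Rpa1 (0.95) and Rpa2 (0.91), which coat single-stranded DNA, Fignl1 (0.97), Mre11a (0.50) and Nbn (0.39). Brca1 (0.91), Trip13 (0.70), Blm (0.80), Eme1 (0.86, adjusted p = 0.00769) and Cdk2 (0.56) were also higher. Exo1, the RPA genes, Brca1 and Blm serve DNA replication and repair in dividing somatic cells too.

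The lower 6 were Rec8 (-1.36, SE 0.149, adjusted p = 0.00105, edgeR), the cohesin subunit of meiosis, Six6os1 (-1.22), a synaptonemal complex protein, Zcwpw2 (-1.21), Rec114 (-0.99), a partner in break formation, Rnf212b (-0.85) and the helicase Hfm1 (-0.71). All 12 genes of the axis and synaptonemal complex list had negative values at E18.5, with a median of -0.77, and 2 of them passed the test. The 10 recombination genes, with a median of -0.49, lay on the side of that list. Leaving out Cdkn1b-null library 3 of E18.5 cut the 18 calls to 7 (1.48% of all genes were called then), the fewest over the 8 libraries.

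**Figure D5:**
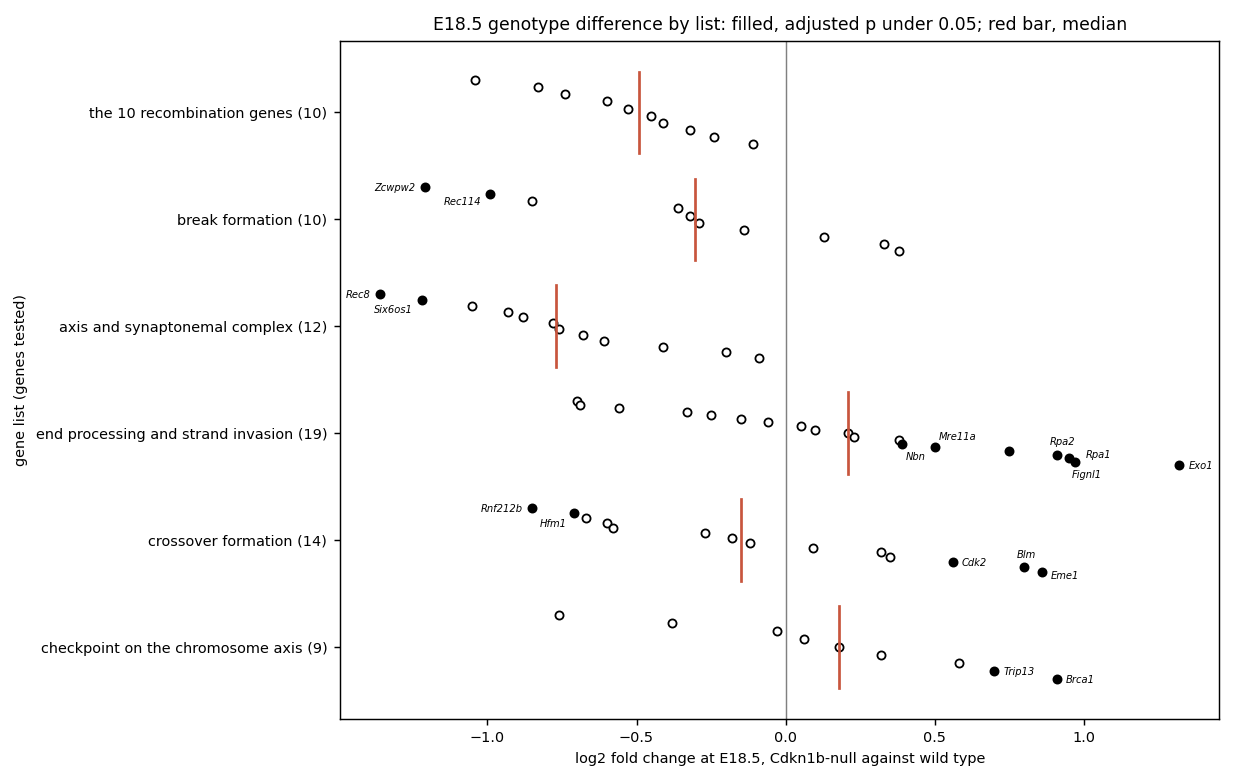
Log2 fold change at E18.5 in Cdkn1b-null against wild type (x axis) for the 10 recombination genes and for 5 lists of other pathway genes (y axis, with the number tested), 1 circle per gene, filled where the adjusted p was under 0.05 (those described in the text are named), with the list median as a red bar. The medians of the 10 genes (-0.49) and of the axis and synaptonemal complex list (-0.77) lie below 0, and that of end processing and strand invasion (0.21) lies above 0.

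Rec8 was the 1 gene of the 64 also called at PND8, where 52 had enough counts (log2 difference -1.70, SE 0.268, adjusted p = 0.0472, edgeR). It was at 6.38, 14.2, 12.5 and 12.9 CPM in wild type and at 4.13, 3.34 and 3.24 in Cdkn1b-null at that age, without overlap, but no gene of the 64 was called there with a replicate block, with all groups fitted together, or when any Cdkn1b-null library was left out. At PND8 13 of the 52 had an unadjusted p under 0.05 in edgeR (15.0% of all genes). At E13.5 0 of 55 were called, with 8 at an unadjusted p under 0.05 (3.49% of all genes) and 0 by DESeq2 (0.397%). Of the 55, 48 were higher in Cdkn1b-null, against 8019 of all 16508 genes tested. At 12wk 0 of 40 were called, with 4 at an unadjusted p under 0.05 (9.62% of all genes) and 1 by DESeq2 (1.88%). Rec8, not called in edgeR at 12wk, was at 3.94 to 15.4 CPM in wild type and 2.11 to 3.19 in Cdkn1b-null. All Cdkn1b-null libraries lay below all wild type there, as for 4.06% of all genes. Ddx4 was at 0.258 to 0.791 CPM in wild type at that age, and which cells carried Rec8 was not tested. In library 3 of Cdkn1b-null E13.5, 31 of the 64 were the highest of the 7 libraries and at least 2-fold above the wild-type mean (3.07% of all genes with enough counts). That share covers tested genes only, whereas 55 of the 64 had enough counts, so the values are not on the same footing. Among the 31 were 11 of the 12 axis and synaptonemal complex genes but 1 of the 9 checkpoint genes.

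With age in wild type, 38 of the 64 changed between E13.5 and E18.5, 23 upward and 15 downward, where 16.6% of all genes rose and 17.5% fell. The smallest p were those of Sycp3 (4.96), Tex12 (3.08) and Ankrd31 (6.16, all log2), which were not the 3 largest changes. Between E18.5 and PND8, 42 fell and 10 rose, where 36.9% of all genes fell and 37.6% rose. The smallest p there were those of Tex12 (-8.97), Six6os1 (-7.82) and the damage-response gene Mdc1 (2.97). Between PND8 and 12wk, 30 of the 45 tested fell and 0 rose, where 14.3% of all genes fell and 16.1% rose. In Cdkn1b-null ovaries the step between the fetal ages gave 5 up and 16 down, where 15.8% of all genes rose and 14.5% fell. The share called in either direction was near the 30.2% of all genes, but more of the list fell than rose. Without library 3 of Cdkn1b-null E13.5 the split turned to 19 up and 13 down, where 14.6% of all genes rose. In Cdkn1b-null the step to PND8 gave 9 up and 50 down (38.9% and 38.5% of all genes), and the step to 12wk 0 up and 32 down (14.8% and 14.3%). Exo1 was the 1 gene of the 64 whose interaction between genotype and fetal age passed the test (1.20, SE 0.171, adjusted p = 0.00692, edgeR): it fell between the fetal ages by 1.92 in wild type and by 0.71 in Cdkn1b-null (log2).

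Among 13751 genes, those whose profile over the 29 libraries was most like the mean of the 10 were Ccnb1ip1 (Pearson's r = 0.976), Adad1 (0.975), Xlr4c (0.974), D1Pas1 (0.972), Sycp3 (0.966) and Sycp1 (0.966). The libraries share ages, and no likeness within an age was computed. Gene by gene, the closest was Meiob for Spo11 (0.99), Ccnb3 for Spata22 (0.991), Terb1 for Mei1 (0.976), Ccdc172 for Msh4 (0.975), Rnf17 for Hormad2 (0.98), Zcwpw1 for Dmc1 (0.97) and Stag3 for Msh5 (0.928). Prdm9 had the loosest best match (Inca1, 0.843). Within the 10, Spo11 and Spata22 were the closest pair (0.988), followed by Hormad1 and Hormad2 (0.968), and Mlh3 was the gene least like the others, with r from -0.401 (Hormad2) to 0.447 (Prdm9).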

How the data were processed

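The authors deposited RSEM expected counts (estimated counts) per Ensembl gene for all 29 samples. The submitters' processing notes name Trim Galore, STAR 2.5.2, RSEM 1.3.0 and FastQC 0.11.5, while build, annotation release, strandedness and filters are not given in the sources used here. Counts were rounded, since 31.4% of the non-zero values were not whole. Each comparison was fitted on its own groups with edgeR 4.0.16 (TMM, filterByExpr with minimum count 10 and minimum total 15, robust quasi-likelihood test, Benjamini-Hochberg over all genes, threshold 0.05), after tests on simulated counts. CPM used TMM factors over all 29 samples, and per-kilobase values used GENCODE M21 exon lengths on GRCm38, which may not be the authors' annotation. SE is the size of the log2 fold change divided by the square root of F. Alternatives were RLE factors, no filter, DESeq2 1.42.0, all groups in 1 fit, a replicate block and leaving out each library. The data, not the labels, gave a sign of pairing by replicate number only between the Cdkn1b-null E13.5 and E18.5 groups: the 3 pairs' deviations correlated at 0.105 to 0.208. The main fits used no pairing there or elsewhere, and the replicate block was an alternative. All 39 replicate pairs differed by more than sampling noise (chi-square per degree of freedom 14.11 to 316.6). The genes named are the 10, Cdkn1b, the pathway genes with the smallest p (4 per genotype comparison, 3 per age step), Ddx4, Dazl, Stra8 and the closest profiles; other called pathway genes and markers were named after their values were seen. Some results that enter the counts are not reported by name here. Members and lists were chosen with earlier results of these data known.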

Additional observations from a re-analysis of the deposited data

Results flagged for a closer look

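In 42 sets of 4 libraries of the same genotype and age, 2 held a library far from the other 3 by Dixon's criterion at the 95% level, which chance passes in about 1 set of 20. Mei1 in Cdkn1b-null replicate 2 at E18.5 stood at 4.86 CPM, against 4.11 to 4.24 in the other 3, a gap that was 0.83 of the whole range. Spata22 in wild-type replicate 3 at E18.5 stood at 11.7 CPM, against 15.1 to 15.2 in the other 3, a gap that was 0.964 of the range. The groups of 3 libraries, including the Cdkn1b-null group of E13.5, were not tested in this way.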

How the results depend on the processing

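Number of the 10 genes called: for genotype at E13.5, 0 became 1 with all groups in 1 fit (Prdm9) and stayed 0 with each library left out. At E18.5, 0 became 2 without a filter on low counts, 4 with DESeq2 and 3 with a replicate block, and was 0 to 2 with a library left out. Replicate numbers did not pair at E18.5 (correlations 0.04 to 0.14, 1 of 4 wild-type and Cdkn1b-null pairs best with its own number), nor at the other ages (lowest -0.096, highest 0.161). At PND8 and 12wk the count was 0 throughout. For 12wk against PND8 in wild type, 1 became 2 without the filter, 2 with DESeq2 and 4 with all groups. For E18.5 against E13.5 in Cdkn1b-null, 2 became 1 without the filter, 4 with all groups and 1 with the replicate block, and 1 to 6 with a library left out. For the interaction, 0 became 2 with DESeq2 and 1 with all groups, and 0 to 4 with a library left out. The block changed no other call count by over 1.5 times.

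Among 430 values of single genes under the alternatives 5 changed sign: Prdm9 in Cdkn1b-null E18.5 against E13.5 with the block (0.35), Mlh3 in Cdkn1b-null PND8 against E18.5 without the filter (0.02), with all groups (0.03) and with the block (0.02), and Mlh3 in Cdkn1b-null 12wk against PND8 with all groups (-0.04). With a library left out 24 of 718 did. Their log2 ranges were, between genotypes, Dmc1 at E13.5 -0.20 to 1.13, Mei1 at E18.5 -0.39 to 0.08, Dmc1, Msh4, Mlh3 and Prdm9 at PND8 -0.35 to 0.12, -0.33 to 0.59, -0.03 to 0.05 and -0.08 to 0.11, and Msh5 at 12wk -0.23 to 0.10. In wild type they were Hormad2 at E18.5 against E13.5 -0.12 to 0.32 and Mlh3 at 12wk against PND8 -0.13 to 0.03. In Cdkn1b-null they were, at E18.5 against E13.5, Dmc1 -0.86 to 0.49, Hormad1 -0.33 to 0.64 and Prdm9 -0.76 to 1.42, Mlh3 at PND8 against E18.5 -0.09 to 0.01, and at 12wk against PND8 Mlh3 -0.02 to 0.08 and Prdm9 -0.70 to 0.02. The interaction of Mei1 ran from -4.26 to 0.79. The cause was not tested.

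Pathway genes called between genotypes at E18.5 numbered 18, and 7 to 18 with a library left out; at PND8 1 became 2 without the filter, 8 with DESeq2, 0 with all groups and 0 with the block; at 12wk 0 became 1 with DESeq2 and with all groups; for the interaction 1 became 9 with DESeq2 and 2 with all groups or the block. Calls over all genes went with DESeq2 from 1 to 65 at E13.5, 814 to 1685 at E18.5, 62 to 821 at PND8, 2 to 326 at 12wk and 76 to 318 for the interaction. With a library left out they ran from 246 to 1372 at E18.5, 0 to 147 at PND8 and 32 to 127 for the interaction. With all groups they were 59, 0, 68 and 134 at E13.5, PND8, 12wk and the interaction, without the filter 258 at PND8 and 12 at 12wk, and with the block 8 at PND8 and 10 at 12wk. Spo11, Mei1, Hormad1, Hormad2 and Spata22 did not pass the filter on low counts between genotypes after birth, so a difference was not testable at these counts.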
